A study of Mus musculus with 3 samples.

Results

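The genes described here encode subunits of the mammalian chromatin remodelers that hold actin, namely the BAF and PBAF, INO80, SRCAP and TIP60/p400 complexes. They were named from the known composition of these complexes, by a rule that uses no measured value though earlier results of these data were known, and number 42 of the 46603 genes in the count files. All 42 were found in the files, on 18 chromosomes.

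RNA-Seq of polyadenylated RNA was performed on 3 libraries of KO-actin mouse embryonic fibroblasts (MEFs). These are β-actin knockout MEFs into which β-actin tagged with a nuclear localization signal (NLS) was put back, a line made earlier and used in the study to ask which effects of β-actin loss are reversed by the nuclear protein. All 3 libraries carry the genotype that the labels call Beta-actin KO-NLS, so no comparison between conditions was possible, and the comparisons below are between genes within a library and between libraries. Neither the promoter that drives the tagged actin, nor whether the line is 1 clone, nor whether the replicates came from separate cultures is given in the sources used here, so tests between libraries measure only the spread between these 3.

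Remodelers of this kind use the energy of ATP to slide, evict or exchange nucleosomes. BAF and its polybromo form PBAF open chromatin at enhancers and promoters, INO80 slides and spaces nucleosomes, SRCAP and p400 put the histone variant H2A.Z into nucleosomes, and TIP60 acetylates histones and H2A.Z. In each of them a monomer of actin and 1 or more actin-related proteins sit together on a helical domain next to the motor subunit. Many BAF positions can be filled by 1 of several paralogs, and which paralog fills them differs between cell types, the best known case being the exchange of ACTL6A for ACTL6B, and of PHF10 for DPF1 or DPF3, when neural progenitors leave the cell cycle.

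Library totals ranged from 44383636 to 49932446 counts, and the floor of 3 counts, which a count of 0 does not exclude, came to 0.0601 to 0.0673 CPM (counts per 1e6 library counts). Actb, the targeted gene, had 53814, 54883 and 47505 counts, a mean of 405 CPM per kilobase of exon, and gene counts cannot separate the tagged copy from what is left of the native gene. Of 10 fibroblast markers, 9 reached 10 counts in every library, Vim being highest at 962 CPM per kilobase, but Col1a2 at 1.69, Pdgfra at 0.496 and Thy1 at 0.279 were low, and Dcn had 8, 8 and 6 counts. Of 6 blood markers 1 reached this minimum, Cd74 at 6.70 CPM per kilobase, and of 6 muscle markers 2 did, while Myod1, Myog and Ckm had 0 counts. All 6 neuronal markers passed this minimum too, from Rbfox3 at 0.0526 to Tubb3 at 5.86 CPM per kilobase. Replicate 2 lay outside the range of the other libraries for 77.1% of the 13814 genes tested, more often than replicate 1 (61.3%) or replicate 3 (61.6%), each set against its own other libraries. The results that rest on it are given also without it.

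Promoter sequences are shown for the alternative BAF motors and the alternative actin-related subunits, which are paralogs of 1 position at very different levels. Dpf2 and Dpf3 lay further apart than the motors, and their promoters are not shown. Each is the 250 bases before the RefSeq start site on GRCm38.p6, printed 5′ to 3′ on the gene's strand, with CpG dinucleotides in capitals. Actl6a lies at chr3:32708296-32708545 and Actl6b at chr5:137553296-137553545, both on the plus strand.
Actl6a: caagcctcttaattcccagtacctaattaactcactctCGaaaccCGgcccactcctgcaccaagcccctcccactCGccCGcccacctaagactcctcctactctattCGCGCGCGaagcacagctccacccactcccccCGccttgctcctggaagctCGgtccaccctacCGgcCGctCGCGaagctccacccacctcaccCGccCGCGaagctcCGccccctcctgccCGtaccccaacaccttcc
Actl6b: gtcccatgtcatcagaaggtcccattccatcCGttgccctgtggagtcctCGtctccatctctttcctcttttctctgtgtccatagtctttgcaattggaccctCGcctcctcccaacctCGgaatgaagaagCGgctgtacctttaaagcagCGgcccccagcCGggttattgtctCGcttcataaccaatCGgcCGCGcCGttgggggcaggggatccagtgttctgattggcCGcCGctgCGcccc
Smarca4 lies at chr9:21615919-21616168 and Smarca2 at chr19:26604910-26605159, also on the plus strand.
Smarca4: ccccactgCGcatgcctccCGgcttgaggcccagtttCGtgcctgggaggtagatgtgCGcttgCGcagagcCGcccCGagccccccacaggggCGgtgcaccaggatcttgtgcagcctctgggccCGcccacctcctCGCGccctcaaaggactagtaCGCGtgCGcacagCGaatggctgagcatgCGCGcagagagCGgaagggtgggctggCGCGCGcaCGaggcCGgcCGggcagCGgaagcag
Smarca2: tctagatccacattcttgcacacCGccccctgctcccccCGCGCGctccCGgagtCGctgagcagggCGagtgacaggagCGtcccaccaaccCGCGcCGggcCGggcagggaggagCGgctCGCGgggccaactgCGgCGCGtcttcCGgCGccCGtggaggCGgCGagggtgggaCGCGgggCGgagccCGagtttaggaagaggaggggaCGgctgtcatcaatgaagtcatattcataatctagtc
The Actl6a promoter held 19 CpG dinucleotides and that of Actl6b 15, while that of Smarca4 held 25 and that of Smarca2 28. The Smarca2 window spans the earliest start that GENCODE gives for this gene, and the Actl6a window, which ends at the RefSeq start, lies wholly inside the GENCODE gene, whose earliest start is further upstream.

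RefSeq promoters were matched for 33 of the 42 genes, giving 38 promoters. Their median GC content was 64.4% against 52.4% over all 32851 promoters of the same length, and their median number of CpG dinucleotides was 21 against 6, with a range of 4 to 51. The TATA box letters TATAAA, searched on both strands, were found in 2 of the 38 promoters, or 5.26%, against 12.4% of all promoters. CCAAT was found in 11, or 28.9%, against 33.8%, the ETS-type letters CCGGAAGT in 4, or 10.5%, against 2.88%, and the NRF1-type letters GCATGCGC in 3, or 7.89%, against 2.26%. Both members of the ACTL6 pair and of the BAF motor pair thus lacked TATAAA in this window, and GCATGCGC was present before Smarca4 and absent before Smarca2. Promoters of the same gene can overlap, as those of Actr6 and of Brd9 do, and both Actr6 promoters are among those with CCGGAAGT.

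A minimum of 10 counts in each of the 3 libraries was passed by 40 of the 42 genes. This count minimum was passed by 29.6% of all genes in the files and by 55.9% of protein-coding genes. The exceptions were Actl6b with 0, 7 and 1 counts and Dpf3 with 0, 1 and 0 counts, both subunits known from neurons and, for Dpf3, from striated muscle. Levels were compared between genes as CPM per kilobase of exon, the union of all annotated exons of a gene, as mean ± SD over 3 libraries. The median over the 42 genes was 12.9 CPM per kilobase, against 7.19 for the protein-coding genes that passed the count minimum. Among those protein-coding genes the 40 lay between the 8.60th and the 91.0th percentile, and 25 of them were above the median. In bulk RNA, fewer cells with a transcript and less of it per cell cannot be told apart.

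**Figure D1:**
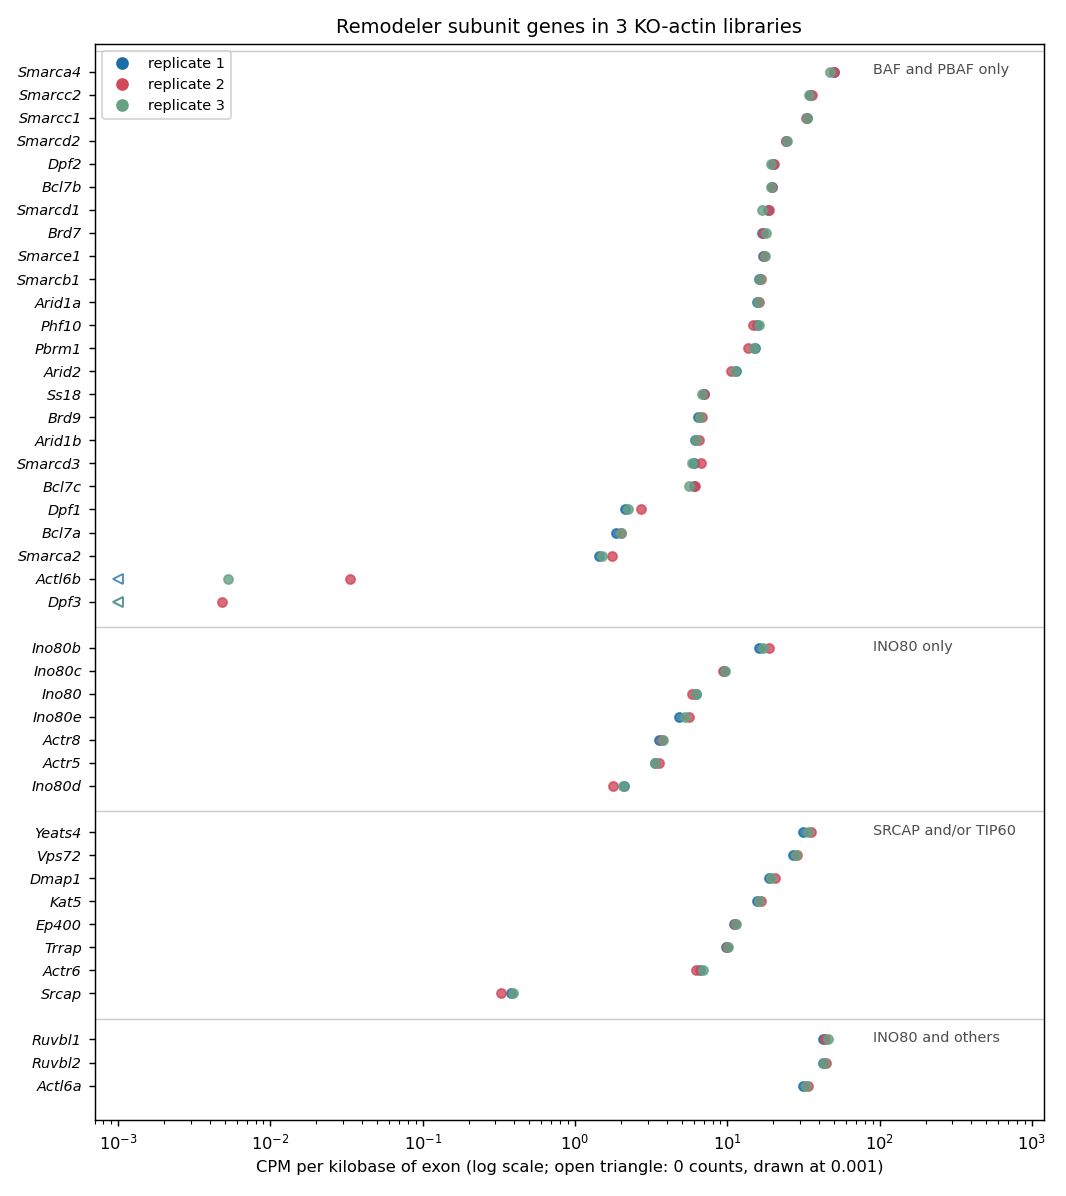
Level of each of the 42 subunit genes in CPM per kilobase of exon (log axis), with 1 point per library and genes grouped by complex. Libraries lie close together for all but Actl6b and Dpf3, and levels run from 0.0016 for Dpf3 to 49.3 for Smarca4.

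By complex, the median level was 30.4 CPM per kilobase for the 8 SRCAP genes, 28.1 for the 9 TIP60 genes, 15.5 for the 25 BAF genes and 7.80 for the 10 INO80 genes. Actl6a, Ruvbl1 and Ruvbl2 were counted in each complex that holds them, and Yeats4, Dmap1 and Vps72 in both SRCAP and TIP60. The SRCAP and TIP60 medians thus rest largely on the same genes. The genes counted for SRCAP alone were low, Srcap at 0.365, a level that is uncertain as described below, and Actr6 at 6.57 CPM per kilobase. The same order of medians was obtained per kilobase of coding sequence, at 65.5, 61.2, 47.0 and 31.6 CPM per kilobase. CPM not divided by length put TIP60 first at 102 and BAF second at 79.2.

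The motor subunits spanned a wide range. Smarca4 (ENSMUSG00000032187, chr9:21616169-21704230 on GRCm38), which encodes BRG1, the main BAF motor in dividing cells, had 16218, 16023 and 13701 counts, or 49.3 ± 1.52 CPM per kilobase. Smarca2 (ENSMUSG00000024921, chr19:26605050-26778322), which encodes the alternative motor BRM, had 1026, 1223 and 950 counts, or 1.56 ± 0.157 CPM per kilobase. Smarca4 was therefore above Smarca2 in each library, and the ranges were far apart. Ep400, the p400 motor of the TIP60 complex, was at 11.2 ± 0.136 CPM per kilobase with 7740, 7728 and 7073 counts. Ino80, the motor of INO80, was at 6.12 ± 0.211 with 2114, 1975 and 1897 counts. Srcap (ENSMUSG00000053877, chr7:127511983-127561219), the motor of SRCAP, had 298, 253 and 276 counts, or 0.365 ± 0.0359 CPM per kilobase. No ranges of these 5 genes overlapped, and the order Smarca4, Ep400, Ino80, Smarca2, Srcap was the same per kilobase of coding sequence, at 65.7, 17.2, 8.90, 4.62 and 0.587 CPM per kilobase.

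The level of Srcap is uncertain. Of its exonic length 61.7% is annotated on the same strand to a second gene, Gm42715, which had 27, 26 and 28 counts, and 90.4% of its 50-base transcript windows also occur there. How reads in such stretches were counted is not given in the sources used here. With all its counts divided by the exonic length that no other gene overlaps, Srcap was at 1.04 CPM per kilobase, 2.86-fold higher. It still ranked 40th of the 42 genes on that scale. This value assumes that reads in overlapped stretches were not counted, which is not known. That length also pools exons of all annotated transcripts, and the other lengths keep the shared stretches, so the rank of Srcap is uncertain too.

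The actin-related proteins bind actin or stand beside it in the complexes. Actl6a (ENSMUSG00000027671, chr3:32706298-32726973), the BAF53A subunit found in all 4 complexes, had 6082, 6496 and 5683 counts, or 32.7 ± 1.25 CPM per kilobase. Of the exonic length of Actl6a, 11.6% lies opposite Mrpl47, which had 1114, 1029 and 1088 counts. Of its 50-base windows, 20.8% also occur in other genes, chiefly Mrpl47, and how reads there were counted is not given. Actr6, of SRCAP, was at 6.57 ± 0.372 CPM per kilobase with 651, 607 and 613 counts. Actr8 and Actr5, both of INO80, were at 3.70 ± 0.109 and 3.41 ± 0.139 CPM per kilobase, with ranges that touched at no point but were close, 3.58 to 3.79 and 3.33 to 3.57. Actl6a was the highest of these genes per kilobase of exon, of coding sequence and of the longest transcript, while Actr8 passed Actr6 per kilobase of coding sequence, at 17.8 against 11.0 CPM per kilobase.

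Actl6b (ENSMUSG00000029712, chr5:137553517-137569582), the BAF53B subunit of neurons, was 0.0128 ± 0.0179 CPM per kilobase, with 7 of its 8 counts in replicate 2. Summed over the libraries, Actl6a was 2506-fold above Actl6b per kilobase, with an exact 95% interval of 1272 to 5806 that covers counting error only. Without replicate 2, a setting chosen after seeing the data, 1 count of Actl6b remained and the ratio was 12920-fold, with an interval of 2318 to 510300. Against 3 counts, the floor per library, Actl6a was at least 2226-fold higher in replicate 1, where Actl6b had 0 counts, and the ratio was 1019-fold in replicate 2, where it had 7. In the same libraries the 6 neuronal markers were not at 0 but ran from 0.0526 to 5.86 CPM per kilobase, with a median of 0.301. The actin-related genes sit far below the actins, since Actg1, the cytoplasmic γ-actin gene, was at 1868 CPM per kilobase.

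The core of BAF was present throughout. The scaffold genes Smarcc1 and Smarcc2 were at 33.1 ± 0.334 and 35.0 ± 0.690 CPM per kilobase. Smarcc2 was higher by 1.06-fold, in 3 of 3 libraries, but Smarcc1 was higher by 1.47-fold per kilobase of coding sequence, so their order was not settled. Smarcb1, the subunit that holds the nucleosome's acidic patch, was at 16.4 ± 0.299 CPM per kilobase and Smarce1, an HMG-domain subunit, at 17.4 ± 0.252. Per kilobase of coding sequence both were among the highest, at 113 and 93.6 CPM per kilobase. Ss18, which joins the motor module and is known from the fusion of synovial sarcoma, had 3300, 3270 and 2880 counts, or 6.97 ± 0.0916 CPM per kilobase.

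The SMARCD position, where BAF60 proteins link the complex to transcription factors, was shared by 3 genes. Smarcd2 was at 24.4 ± 0.311 CPM per kilobase, Smarcd1 at 18.0 ± 0.937 and Smarcd3, the form known from heart and muscle, at 6.20 ± 0.418. Smarcd2 gave 50.2% of the summed level and Smarcd3 12.7%, while Smarcd1 gave 37.8%, 37.7% and 35.6% in the 3 libraries. Smarcd3 is uncertain, because 48.2% of its exonic length lies opposite exons of Chpf2, a gene with 3056, 3338 and 2712 counts, and without a stated strand setting reads of these genes cannot be told apart. With all counts divided by the length not overlapped, Smarcd3 was at 12.0 CPM per kilobase. Smarcd1 was then 1.62-fold above it in place of 2.91-fold, and Smarcd2 2.04-fold in place of 3.94-fold. These values assume that reads in overlapped stretches were not counted.

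The genes that define the BAF forms lay between 6.29 and 17.4 CPM per kilobase. Arid1a, whose product defines canonical BAF and carries many tumour mutations, had 9006, 9095 and 8127 counts, or 15.9 ± 0.163 CPM per kilobase, and its paralog Arid1b was at 6.29 ± 0.207. The PBAF genes were at 17.4 ± 0.555 (Brd7, a bromodomain subunit), 15.5 ± 0.739 (Phf10, a PHD finger subunit), 14.6 ± 0.886 (Pbrm1, the polybromo subunit) and 11.0 ± 0.425 CPM per kilobase (Arid2, the PBAF counterpart of ARID1). Brd9, the bromodomain subunit of the non-canonical form, was at 6.58 ± 0.183 CPM per kilobase. Arid1a was 2.55-, 2.46- and 2.57-fold above Arid1b, and Brd7 was 2.65-, 2.54- and 2.75-fold above Brd9, in replicates 1, 2 and 3. Per kilobase of coding sequence the Arid1a ratio was 2.31-fold and the Brd7 ratio 1.83-fold.

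The double PHD finger genes differed by orders of magnitude. Dpf2, the form found in most cells, had 6492, 6481 and 5624 counts, or 19.9 ± 0.397 CPM per kilobase. Dpf1, known from neurons, had 569, 723 and 534 counts, or 2.36 ± 0.321 CPM per kilobase. Dpf3 had 1 count in all. Dpf2 gave 89.4% of the summed level and Dpf1 10.6%. Dpf2 was 8.48-fold above Dpf1 (9.44, 7.41 and 8.71 in replicates 1, 2 and 3), and it was at least 1406-fold and 1218-fold above Dpf3, set at the floor of 3 counts, in replicates 1 and 3. Summed over the libraries the ratio of Dpf2 to Dpf3 was 12090-fold, with an exact 95% interval of 2169 to 477400 that rests on 1 count in replicate 2, without which Dpf3 had 0 counts. Of the neuronal forms, Actl6b and Dpf3 were thus at or near the floor, while Dpf1 was well above it.

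The BCL7 proteins are small accessory subunits of BAF. Bcl7b was at 19.5 ± 0.0844 CPM per kilobase, Bcl7c at 5.92 ± 0.305 and Bcl7a at 1.96 ± 0.0782, or 71.3%, 21.6% and 7.14% of their summed level. These shares depended on the length used. Per kilobase of coding sequence they were 46.7%, 35.6% and 17.8%, so that Bcl7b was 1.31-fold above Bcl7c in place of 3.30-fold and 2.63-fold above Bcl7a in place of 9.99-fold, the order being the same.

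Ruvbl1 and Ruvbl2 encode the AAA+ ATPases that form 1 mixed ring in INO80, SRCAP and TIP60. They had 4014, 4131 and 3873 counts and 6118, 6386 and 5548 counts, and their levels were 44.1 ± 1.73 and 43.2 ± 1.19 CPM per kilobase. The ranges overlapped, and the ratio was 1.02-fold. Per kilobase of coding sequence Ruvbl2 was 1.48-fold higher. Of the exonic length of Ruvbl2, 15.4% is overlapped by other genes, chiefly Gys1 on the opposite strand. With all its counts divided by the rest of that length, Ruvbl2 was at 51.1 CPM per kilobase. Of the 50-base windows of Ruvbl1, 56.2% also occur in the pseudogene Gm5837, which had 154, 145 and 149 counts.

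The remaining INO80 genes were lower. Ino80b and Ino80c were at 17.3 ± 1.33 and 9.48 ± 0.190 CPM per kilobase, Ino80e at 5.24 ± 0.384 and Ino80d at 1.99 ± 0.173. For Ino80e, 16.4% of the exonic length is overlapped by other genes, chiefly Doc2a, which had 0, 3 and 1 counts. Subunits held by both SRCAP and TIP60 were higher. Yeats4, the GAS41 reader of acetylated histones, had 2208, 2492 and 2147 counts, or 33.7 ± 2.23 CPM per kilobase. Vps72, the H2A.Z chaperone YL1, was at 28.1 ± 0.931 and Dmap1, a scaffold, at 19.5 ± 0.90. In TIP60, the acetyltransferase gene Kat5 was at 16.1 ± 0.402 CPM per kilobase and Trrap, the large scaffold that binds transcription activators, at 9.96 ± 0.0965, the latter with 10270, 10259 and 9342 counts. For Kat5, 12.1% of the exonic length lies opposite Rnaseh2c.

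In the order of levels per kilobase of exon, Smarca4 stood first and its range overlapped no other. Ruvbl1 and Ruvbl2 followed and did not differ beyond their spread, and below them Smarcc2, Yeats4, Smarcc1 and Actl6a formed a run in which each neighbour overlapped the next. Of the 41 neighbouring pairs in the whole order 23 overlapped. The top of the order depended on the length. Smarca4 was first per kilobase of exon and in undivided CPM (319), 2nd per kilobase of exon not overlapped, where Ruvbl2 led at 51.12 against 50.01, 3rd per kilobase of the longest transcript, where Actl6a led at 63.2, and 10th per kilobase of coding sequence, where Smarcb1 led at 113. Actl6a, Dpf2, Smarca4 and Smarcc1 were among the 10 highest on all 5 scales tried, and Srcap, Actl6b and Dpf3 were the 3 lowest on all 5. The place of Srcap is uncertain on all 5, since reads in stretches shared with Gm42715 may not have been counted.

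The alternative paralogs were compared as ratios within each library, which do not depend on library size. Of 15 pairs, with counts under 3 set to 3, 12 differed by over 2-fold in every library, and 14 had the same sign in 3 of 3 libraries. With 3 libraries the exact two-sided sign-flip permutation test cannot go below p = 0.25, which these 14 pairs gave, and the Ruvbl pair gave 0.75. Smarca4 was 34.8-, 28.9- and 31.8-fold above Smarca2 per kilobase of exon in replicates 1, 2 and 3, a mean of 31.7-fold. Smarca2 has a long annotated exonic length, and the ratio was 14.3-fold per kilobase of coding sequence, 13.4-fold per kilobase of the longest transcript and 14.4-fold in undivided CPM. Smarca4 thus gave 96.9% ± 0.279 of the summed level of the motor pair per kilobase of exon and 93.4% ± 0.576 per kilobase of coding sequence.

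**Figure D2:**
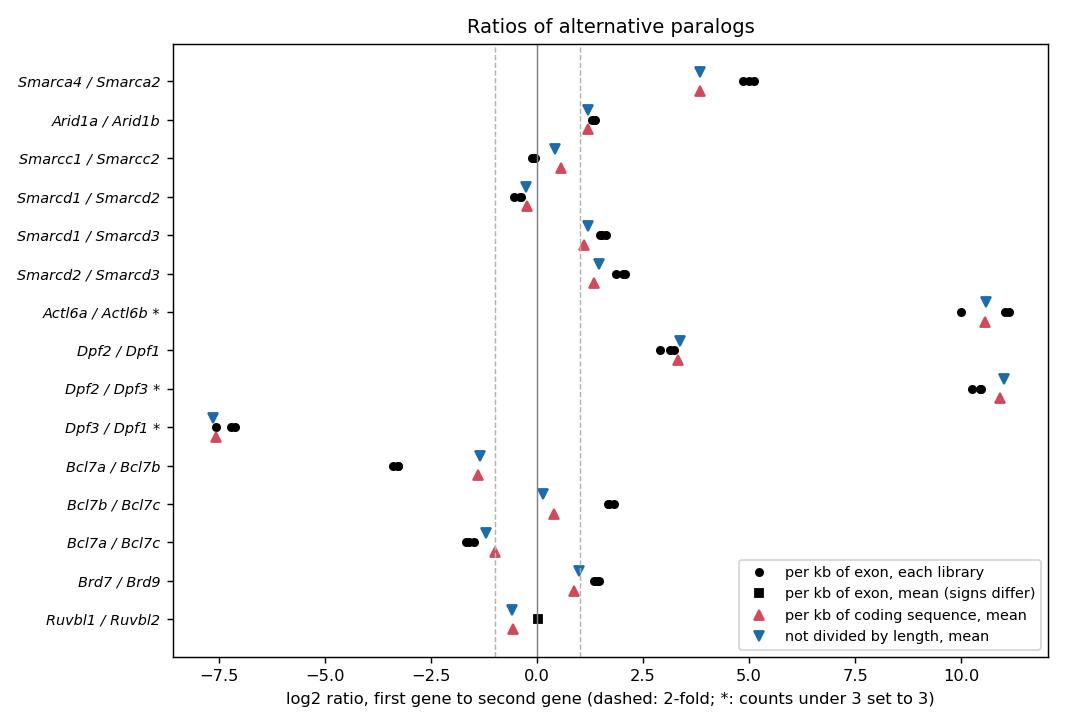
Log2 ratio of the first to the second gene of 15 paralog pairs, per kilobase of exon in each library (black), per kilobase of coding sequence (red) and in undivided CPM (blue). The libraries nearly coincide for most pairs, while the choice of length moves the Smarca4 to Smarca2 ratio from 31.7-fold to 14.3-fold and the Bcl7a to Bcl7b ratio most in relative terms.

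Variation between the 3 libraries was tested for each gene against counting error. Of the 40 genes tested, 20 varied beyond it (chi-square with Benjamini-Hochberg adjustment over 13814 genes, threshold 0.05), against 43.8% of all genes tested. Among genes of 10 to 100 CPM the counts were 14 of 25, against 47.4%. By complex, 12 of the 23 BAF genes tested, 6 of 10 INO80 genes, 6 of 8 SRCAP genes and 6 of 9 TIP60 genes varied. These counts are not separate. The 6 of SRCAP and the 6 of TIP60 are the same genes, Actl6a, Ruvbl1, Ruvbl2, Yeats4, Dmap1 and Vps72. Actl6a, Ruvbl1 and Ruvbl2 are also among those of INO80, and Actl6a among those of BAF. The share of subunit genes that varied was near that of all genes, and 0 of the 40 varied by over 1.5-fold between the lowest and the highest library, against 3.8% of all genes. The widest span was 1.28-fold, for Dpf1.

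The differences were small in size. The median SD of log2 CPM was 0.049 over the 40 genes, with 0.025 given by counting alone, and it was 0.080 over all genes tested. Within 10 to 100 CPM it was 0.058 for the subunit genes and 0.066 for all. Bcl7b had the smallest spread, at 47.2, 46.9 and 46.8 CPM, with an SD of 0.0062 on the log2 scale. Counting alone gives 0.030 for Bcl7b, so an SD below that does not show that the gene is steadier than others. Dpf1 was the most variable, at 11.4, 14.6 and 12.0 CPM, with an SD of 0.19 on the log2 scale.

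**Figure D3:**
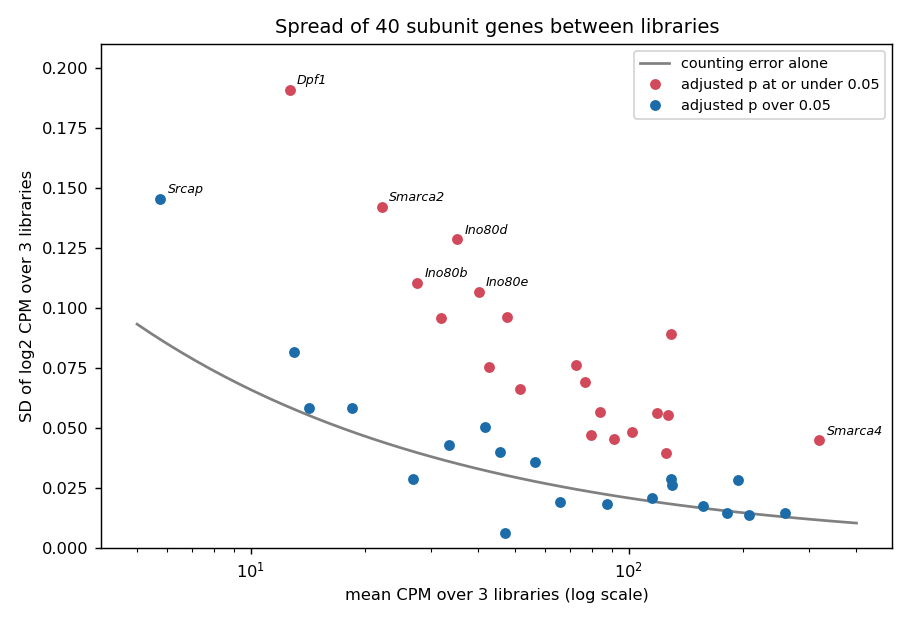
SD of log2 CPM over the 3 libraries against mean CPM (log axis) for the 40 subunit genes that passed the count minimum, with the spread that counting alone gives as a line. Dpf1 lies highest at 0.19, and the 20 genes past the threshold are in red.

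Replicate 2 was the library farthest from the others in 11 of the 20 genes that varied, 15 of the 20 being higher there and 5 lower than the mean of the others. It was outside the range of the other libraries for 32 of the 40 genes, replicate 1 for 27 and replicate 3 for 21, and it was above in 22 and below in 10. For all genes the share outside was 77.1% for replicate 2, with 38.4% above and 38.7% below. Pbrm1 had 134.9, 120.2 and 132.3 CPM and the smallest adjusted p (9.9e-10), and Ino80d had 37.2, 31.7 and 36.7 CPM (adjusted p = 1.6e-05), both low in replicate 2. Smarca2 had 20.6, 24.8 and 21.3 CPM (adjusted p = 8.8e-05) and Dpf1 was likewise high there (adjusted p = 6.0e-05). Smarca4 was different, at 324.8, 324.3 and 307.5 CPM (adjusted p = 6.5e-06), low in replicate 3.

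By role, all 4 PBAF genes varied, against 43.8% of all genes tested. Arid2 at 121.6, 113.3 and 120.8 CPM and Phf10 at 77.3, 72.3 and 79.3 were lowest in replicate 2 like Pbrm1. Brd7 at 89.1, 90.1 and 94.6 was instead highest in replicate 3. Their GC contents were low, at 41.8% for Pbrm1, 42.4% for Phf10, 45.9% for Arid2 and 47.2% for Brd7, against a median of 51.2% over the 40 genes. With library sizes set within bins of GC content none of the 4 passed, at adjusted p = 0.14, 0.55, 0.52 and 0.14. Of the genes that SRCAP and TIP60 share, Yeats4 (44.2, 50.4 and 48.2 CPM), Vps72 (98.4, 105.0 and 103.1 CPM), Dmap1 (49.3, 54.0 and 51.0 CPM), Ruvbl2 (122.5, 129.3 and 124.5 CPM) and Actl6a (121.8, 131.5 and 127.6 CPM) were highest in replicate 2, and Ruvbl1 (80.4, 83.6 and 86.9 CPM) in replicate 3. With the GC bins Yeats4, Vps72, Actl6a and Ruvbl1 passed, at adjusted p = 0.00086, 5.4e-05, 0.00032 and 0.0055, while Dmap1 and Ruvbl2 did not, at 0.34 and 0.27. The other genes that varied were Smarcd1, Smarcd3, Arid1b, Bcl7c, Ino80b and Ino80e, all above the mean of the other libraries in replicate 2. Of these, Smarcd1 (74.4, 75.1 and 68.2 CPM) and Bcl7c (43.5, 44.5 and 40.3 CPM) were, like Smarca4, low in replicate 3. Without replicate 3 neither passed the chi-square test (adjusted p = 0.78 and 0.57).

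Without replicate 2, 5 of the 40 genes varied, against 12.4% of all genes. These were Smarca4, Smarcd1, Brd7, Ruvbl1 and Yeats4. With library sizes set within 50 bins of GC content, 15 of 40 varied, against 29.9%. Of these, 11 were among the 20 that varied before, and 4 were not, namely Smarce1 (adjusted p = 3.1e-08, the smallest of the 40 genes in that setting), Smarcd2 (0.0002), Arid1a (0.00085) and Trrap (0.044). The deviation of replicate 2 from the mean of the others moved with GC content. Its median was -0.12 on the log2 scale for the 6 genes under 45% GC, 0.045 for the 23 genes of 45% to 55% and 0.077 for the 11 genes of 55% or more. Across the 40 genes, which share the libraries and are not independent, Pearson's r was 0.52 and Spearman's rho 0.55, and over all genes Spearman's rho was 0.49. The part that base composition plays in these calls was not tested beyond the setting of library sizes by GC, under which Pbrm1 no longer passed (adjusted p = 0.14) and Smarca4 and Smarca2 did (adjusted p = 0.00016 and 0.00084).

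**Figure D4:**
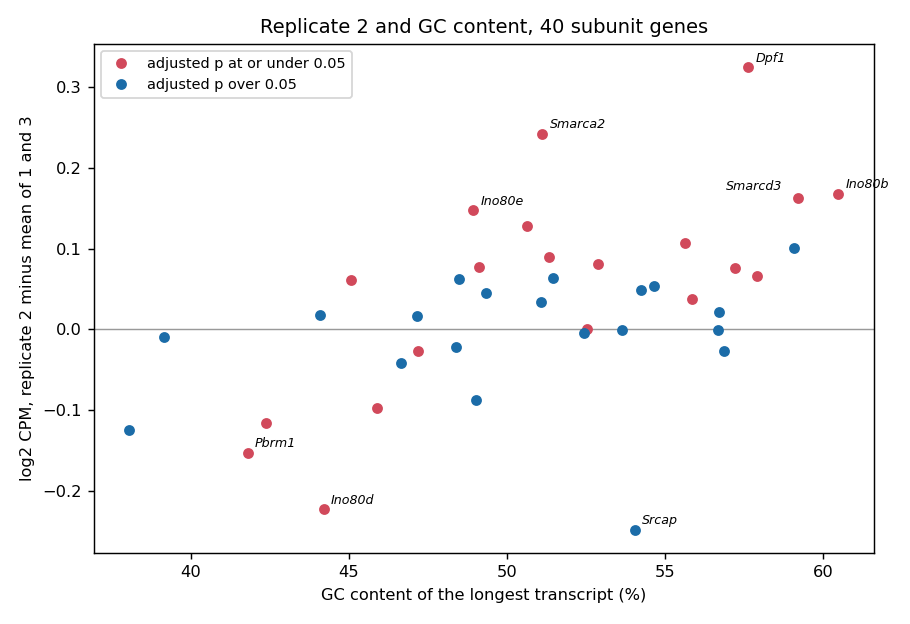
Log2 CPM of replicate 2 minus the mean of replicates 1 and 3 against GC content of the longest transcript for the 40 subunit genes, with genes past the threshold in red. Pbrm1 and Ino80d, under 45% GC, lie below 0, and Dpf1, Smarcd3 and Ino80b, over 55%, lie above. Between these GC contents, Srcap at 54.05% lies lowest of all at -0.25, not past the threshold, and Smarca2 at 51.1% lies at 0.24.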

How the data were processed

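RNA-Seq counts of 3 KO-actin libraries were analysed. Each deposited file holds the authors' raw counts, 1 whole number per Ensembl gene, not normalized. The submitters' processing notes name Trimmomatic, FastQC, HISAT2 and HTSeq and the builds mm10 and GRCm38. Their versions, the annotation release, the strand setting and the treatment of reads matching several genes are not given in the sources used here, and the last can change the counts of genes with shared sequence. The study used DESeq2 to compare conditions, which 1 condition does not allow.

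Identifiers matched GENCODE M21 (GRCm38) for 46091 of 46603 genes, and the rest held 0.0544% of counts. CPM used TMM library sizes (edgeR 4.0.16, R 4.3.3) computed on genes passing a minimum of 10 counts in all 3 libraries, with DESeq2 1.42.0 size factors and totals as alternatives. Lengths were the union of exons, with coding length, longest transcript and length not overlapped as alternatives. All counts of a gene were divided by each of these lengths. Variation beyond counting error used a chi-square per gene (2 degrees of freedom, Benjamini-Hochberg adjusted), tested first on simulated data. Other values came from Python 3.11.15, numpy 2.4.6, pandas 2.3.3, scipy 1.17.1 and matplotlib 3.10.9. Intervals are exact 95% and, with the floor of 3 counts, cover counting error only. Named genes were all 42 subunit genes, the actins, the 2 highest and 2 lowest in the list of other subunits and the member paralog Ss18l1. Also named were the highest and lowest of each marker list and of the remodelers without actin, and genes sharing sequence with a member. Tmcc1, which shares sequence with H2afz, and H2afv were named outside this rule. Low fibroblast markers other than Dcn, and Myod1, Myog, Ckm, Myh11 and Tnnt2, were named after their values were seen. The members and lists were chosen with earlier results of these data known.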

Additional observations from a re-analysis of the deposited data

How the results depend on the processing

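Detection of 40 genes was the same under 3 other count minimums and without each library. Without replicate 1, 12 subunit genes varied beyond counting error, against 33.0% of all genes tested. Leaving out replicate 2 gave 5, against 12.4%, and leaving out replicate 3 gave 15, against 34.2%. Under other scalings and filters 15 to 21 varied, against 25.9% to 51.7% of all genes tested. Lengths mattered more than scaling. The mean of the 3 library medians of the level was 16.6 CPM per kilobase of the longest transcript and 36.6 per kilobase of coding sequence, in place of 12.95 (the median of the gene means is 12.9). Of the 15 paralog pairs, 9 to 11 were over 2-fold apart with other lengths, in place of 12. The log2 ratio of Smarcc1 to Smarcc2 turned from -0.080 to 0.076 by longest transcript, 0.55 by coding length and 0.42 with no division by length. That of Ruvbl1 to Ruvbl2 turned from 0.027 to -0.12, -0.56 and -0.59 by the same lengths, to -0.22 by length not overlapped, and ranged from -0.0064 without replicate 3 to 0.049 without replicate 2. No other ratio changed sign. The unique-length settings, and lengths other than exonic for levels, were chosen after seeing the data. Depth limits Actl6b and Dpf3, which had 8 counts and 1 count in all. No paired analysis was possible because the 3 libraries belong to 1 condition.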

Other observations

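The 22 genes listed as other subunits of the same complexes, outside the 42 genes, ranged widely. Among them are the H2A.Z genes H2afz and H2afv, which encode the histone that is placed rather than a subunit. Of the 22, 20 passed the count minimum, against 55.9% of protein-coding genes, and the median over the 22 was 6.72 CPM per kilobase. Of the 20, 7 varied beyond counting error, against 43.8% of all genes tested. The highest were H2afz, the H2A.Z gene that SRCAP and p400 place into nucleosomes, at 147 CPM per kilobase, and Morf4l2, of TIP60, at 118. For H2afz, 69.6% of the 50-base transcript windows also occur in other genes, 60.8% in Tmcc1, so its level is uncertain. The lowest were Bcl11a with 0, 1 and 1 counts and Bcl11b with 1, 5 and 4 counts, both zinc finger BAF subunits known from lymphoid and neural cells. Ss18l1, the CREST paralog that takes the place of SS18 in neurons, had 283, 243 and 185 counts, or 1.13 CPM per kilobase, against 6.97 for Ss18.

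The 14 remodeler genes of families that hold no actin, the ISWI and CHD motors among them, all passed the count minimum. Their median was 5.50 CPM per kilobase, from Smarca1 at 0.306 to Chd4, the NuRD motor, at 65.2, and 9 of the 14 varied beyond counting error, against 43.8% of all genes tested. Their median deviation of replicate 2 was -0.10 on the log2 scale at a median GC content of 46.5%. It was 0.036 at 51.2% for the 40 subunit genes tested and 0.0036 at 49.2% for the 20 other subunits. With library sizes set within bins of GC content these medians were -0.043, 0.0037 and 0.022.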
